A study of Mus musculus with 2 samples.

Results

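Malat1, Neat1 and Meg3 are long noncoding RNAs that stay in the nucleus. They were followed in single αSMA-labeled cells of the mouse periosteum, the cell layer that covers bone. These 3 genes were chosen by name, with earlier results of these data known, among them the higher count of Neat1 at 13 weeks. They are 3 of 17938 genes listed for the 2 plates together, and all 3 have a row in each plate. In the mice studied, tamoxifen switches on Cre recombinase in cells that use the smooth muscle actin (αSMA, gene Acta2) promoter, and these cells and their descendants then carry the red Tomato reporter. The mice received 2 doses of tamoxifen, each of 75 mg/kg, and living Tomato+ cells from tibia and femur periosteum were sorted 1 per well from 1 pool of female mice per time point.

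The 2-day cells came from aSMACreER/Ai9/Col2.3GFP mice aged 10.3 weeks, and the 6-week cells from mice of the same genotype aged 14.4 weeks after a chase of 43 days. The 13-week cells came from mice aged 20.1 weeks after a chase of 96 days. The labels write their genotype as aSMACreER/Ai9/R26-M2rtTA/TetOP-H2B-GFPH2B, and these mice had also received doxycycline for 5 weeks from before weaning, with a start day that the labels and the methods of the study give differently. At 13 weeks the genotype, the age, the doxycycline and the chase are confounded and cannot be told apart. The 2-day and 13-week cells filled different rows of a shared plate, and the 6-week cells were on a plate of their own, so that plate and time cannot be told apart at 6 weeks. With 1 pool per time point there was no test between time points, and all intervals are 95% intervals that cover counting error only. All 384 cell barcodes occur on both plates by design.

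Wells with 200 or more genes were kept, which were 181 of 192 wells at 2 days, 189 of 216 at 6 weeks and then 133 of 192 at 13 weeks, 503 in all. A kept well held 246 to 3928 UMIs (unique molecular identifiers, each standing for 1 captured RNA molecule), with a median of 795 at 2 days, 672 at 6 weeks and then 726 at 13 weeks. A level below is the number of UMIs of a gene per 10000 UMIs over the pooled wells. Acta2 itself had a UMI in 22.1% of wells at 2 days, 15.3% at 6 weeks and then 28.6% at 13 weeks. Markers of fibroblasts or progenitors (8 genes) had a UMI in 97.8%, 98.9% and 98.5% of wells, while their summed level was 207 at 2 days, 194 at 6 weeks and then 118 at 13 weeks. The mix of other cells was not constant. The summed level of 11 endothelial markers was 3.50, 9.50 and 16.0 at 2 days, 6 weeks and 13 weeks, that of 5 red blood cell markers 17.7, 29.2 and 39.8, and that of 10 perivascular markers 23.1, 32.3 and 43.2. Osteoblast markers were seen in 14.9% of 2-day wells, 82.0% of 6-week wells and 12.8% of 13-week wells. Their summed levels were similar at 2 days and 6 weeks, 23.9 and 25.1, but 2.21 at 13 weeks. The 410 UMIs at 2 days and 393 at 6 weeks were thus spread over many more wells at 6 weeks. The share is therefore not read as osteoblast identity, and its cause was not tested. The paper reports Bglap, a gene of mature osteoblasts, as absent or low in αSMA-labeled cells. The mitochondrial share of UMIs had a median of 5.83%, 3.59% and 6.93%.

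Malat1 gathers in nuclear speckles, the bodies that hold splicing factors, and is among the abundant RNAs of most mammalian cells. Neat1 is the scaffold of paraspeckles, nuclear bodies built on its long isoform, and its transcription is known to respond to p53, hypoxia and other kinds of stress. Meg3 is transcribed from the maternal chromosome of the imprinted Dlk1-Dio3 locus. In the GENCODE M21 annotation of GRCm38, Malat1 (ENSMUSG00000092341) lies at chr19:5795690-5802672 on the minus strand. Neat1 (ENSMUSG00000092274) lies at chr19:5824708-5845478 on the same strand, 22035 bases away. Meg3 (ENSMUSG00000021268) lies at chr12:109541001-109571726 on the plus strand and has 11 annotated transcripts.

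The method captures RNA by a tail of A bases, so the 3′ ends of the transcripts decide which molecules can be counted. The last 100 bases of a transcript of each gene, all exonic and read from the GENCODE M21 transcript sequences, are given 5′ to 3′, and capitals mark the AATAAA signal that precedes the site where a tail is added. Malat1-201 (6983 bases, 1 exon) ends at chr19:5795690-5795789. Neat1-202, the short isoform (3004 bases, 2 exons), ends at chr19:5842307-5842406. Meg3-207 (1896 bases, 10 exons) ends at chr12:109571622-109571721.
Malat1-201: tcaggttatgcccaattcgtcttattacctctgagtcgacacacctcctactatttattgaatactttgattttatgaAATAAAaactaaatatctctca
Neat1-202: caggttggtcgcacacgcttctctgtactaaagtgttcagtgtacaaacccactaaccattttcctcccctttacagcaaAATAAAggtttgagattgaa
Meg3-207: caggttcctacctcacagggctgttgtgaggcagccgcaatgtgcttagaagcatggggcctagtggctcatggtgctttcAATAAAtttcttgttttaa
The signal begins 22, 20 and 19 bases before the end of these transcripts. It occurs on the transcript strand in the last 100 bases of 28.9% of the 139316 transcripts of at least 100 bases in the annotation.

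Malat1 and the long isoform of Neat1 are also known for 3′ ends that are cut by RNase P and protected by a triple helix of U-rich and A-rich stretches rather than by a tail. These stretches are shown with the strings of 11 or more letters that Malat1-201 and the last 100 bases of Neat1-201 (20771 bases, 1 exon) share in capitals. The Malat1 stretch lies at chr19:5795972-5796066, inside the single exon, and the Neat1-201 stretch is its annotated end, at chr19:5824708-5824802.
Malat1-201: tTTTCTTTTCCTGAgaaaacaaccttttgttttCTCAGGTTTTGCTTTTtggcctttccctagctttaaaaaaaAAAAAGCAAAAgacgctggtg
Neat1-201: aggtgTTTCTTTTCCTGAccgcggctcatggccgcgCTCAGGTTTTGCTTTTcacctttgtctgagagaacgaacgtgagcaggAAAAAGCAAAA
The strings of 13 and 16 letters each hold a U-rich stretch and the string of 11 letters the A-rich one. The string of 16 letters was found in 2 of 68537 annotated transcripts of at least 1000 bases, which are these 2. The string of 13 letters was in 34 and that of 11 letters in 551 (0.804%) of them. Malat1-201 holds 1 run of 8 or more A, which is 12 bases long and begins 310 bases from the annotated end, and 24.4% of the 68537 transcripts hold such a run. Neither Neat1-201, Neat1-202 nor Meg3-207 holds one. The last 100 bases of Neat1-201 hold no AATAAA. The deposited counts are per gene, so UMIs of the short and long isoforms of Neat1 could not be separated.

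Neat1 had 90 UMIs in the 181 wells at 2 days, 296 in the 189 wells at 6 weeks and then 203 in the 133 wells at 13 weeks. Its level was 5.26 (Poisson interval 4.23 to 6.46) at 2 days, 18.9 (16.8 to 21.2) at 6 weeks and then 17.2 (14.9 to 19.8) at 13 weeks. The interval at 2 days lay below the other two, which overlapped each other. The 13-week level was 3.28 times the 2-day level (exact interval 2.54 to 4.25). Since the gene was chosen with this difference known, it is a description. Over single wells, the lowest level was 0 at each time, the median was 0 at 2 days, 11.2 at 6 weeks and then 8.70 at 13 weeks, and the highest was 65.4, 106 and 213. The wells of the 3 time points overlapped widely. A Neat1 UMI was seen in 32.0% of wells at 2 days (Clopper-Pearson interval 25.3 to 39.4%), in 57.7% at 6 weeks (50.3 to 64.8%) and in 54.1% at 13 weeks (45.3 to 62.8%). With each well thinned to 300 UMIs, which left 175, 182 and 126 wells, the shares were 17.1%, 32.97% and 32.5%. Wells with 3 or more Neat1 UMIs made up 3.87%, 19.05% and 19.5% of the wells.

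**Figure D1:**
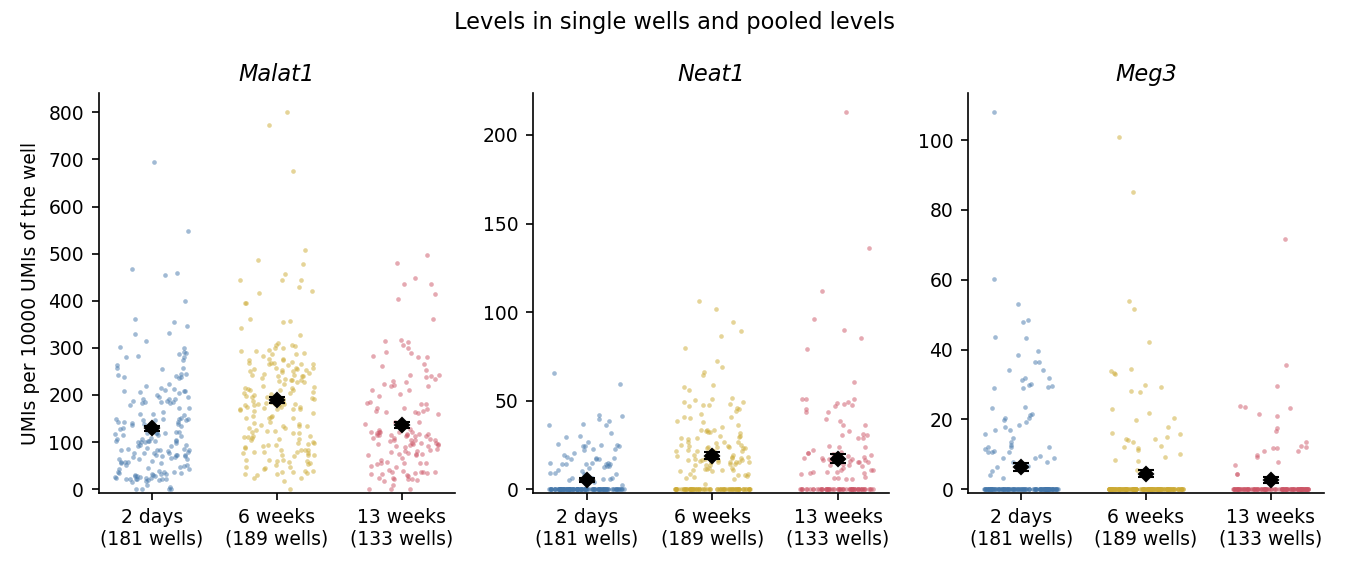
Level of Malat1, Neat1 and Meg3 in each kept well (points, UMIs per 10000 UMIs of the well, linear axes that differ between panels) at 2 days, 6 weeks and 13 weeks, with the pooled level (diamond) and its 95% Poisson interval. For Neat1 the pooled level is 5.26, 18.9 and 17.2, and for Meg3 6.31, 4.40 and 2.55, while many wells of both genes sit at 0.

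Among the 772 genes with 50 or more UMIs at 2 days and 13 weeks together, 9 had a higher ratio of 13 weeks over 2 days than Neat1. Of these genes, 8.68% (67) were at least 1.5-fold higher and 18.5% (143) at least 1.5-fold lower at 13 weeks. Their median log2 ratio was −0.12, so that the typical gene was slightly lower at 13 weeks on this scale, and the log2 ratio of Neat1 stands against that value. With the median gene ratio as the scaling, 95 genes were higher and 101 lower. Between 2 days and 6 weeks, 13.2% of 957 genes were at least 1.5-fold higher and 11.5% at least 1.5-fold lower, and 11 had a higher ratio than the 3.59 (2.83 to 4.60) of Neat1. Since the 2-day wells serve in both ratios, the 2 values for Neat1 are not independent.

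Malat1 had 2210, 2973 and 1597 UMIs at 2 days, 6 weeks and 13 weeks. Its level was 129 (124 to 135) at 2 days, 190 (183 to 197) at 6 weeks and then 136 (129 to 142) at 13 weeks. The 13-week level was 1.05 times the 2-day level, with an interval of 0.984 to 1.12 that holds 1. The 6-week level was 1.47 times the 2-day level (1.39 to 1.55). Over single wells the lowest level was 0 at each time, the median was 113, 183 and 114, and the highest was 695, 800 and 496. Nearly every well held the RNA. It was seen in 97.8% of wells at 2 days, 99.5% at 6 weeks and then 97.7% at 13 weeks, and in 92.0%, 97.8% and 92.1% after thinning to 300 UMIs.

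Meg3 had 108, 69 and 30 UMIs. Its level was 6.31 (5.17 to 7.62) at 2 days, 4.40 (3.42 to 5.57) at 6 weeks and then 2.55 (1.72 to 3.63) at 13 weeks. The intervals of 2 days and 13 weeks did not overlap, and that of 6 weeks overlapped both. The 13-week level was 0.404 times the 2-day level (0.260 to 0.610), and of the 772 genes 26 had a lower ratio. The 6-week level was 0.698 times the 2-day level (0.508 to 0.953), but on read counts in place of UMIs this ratio was 1.07, so that its direction holds for UMIs and not for reads. Of the 12 classes and strata of wells described below, the Meg3 interval lay under 1 in 9 for 13 weeks over 2 days and in 6 for 6 weeks over 2 days, and the level at 6 weeks was not between the other two in all of them. A Meg3 UMI was seen in 31.5% of wells at 2 days, 18.0% at 6 weeks and then 17.3% at 13 weeks, and in 14.3%, 9.34% and 7.94% after thinning. Over single wells the lowest level and the median were 0 at each time, and the highest was 108, 101 and 71.8.

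The spread of each RNA over wells was set beside an even level. If every well of a time point had the pooled level, a Neat1 UMI would be expected in 36.6%, 70.4% and 70.3% of wells at these depths. The observed shares of 57.7% at 6 weeks and 54.1% at 13 weeks were lower, so Neat1 UMIs were gathered in fewer wells than an even level gives. The 5 wells with the most Neat1 UMIs held 17.8%, 18.2% and 24.1% of them. For Meg3 an even level would give 41.7%, 28.5% and 19.4% of wells, against 31.5%, 18.0% and 17.3% observed. The 5 wells with the most Meg3 UMIs held 27.8%, 37.7% and 40.0% of them. For Malat1 the 5 leading wells held 11.7%, 11.2% and 14.3%. Such a share depends on how many UMIs a gene has, so it is not compared between the RNAs. The squared deviation of a well's count from an even level, divided by the expected count, averaged 7.37, 5.37 and 6.42 for Malat1. It averaged 1.63, 2.09 and 3.16 for Neat1 and 2.76, 2.85 and 1.64 for Meg3. All are above what counting error alone gives, so the intervals here are too narrow for the spread over wells.

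Rows of the plate gave a view of position within each time point. The Neat1 level of a row ranged from 3.03 to 7.95 over the 8 rows at 2 days, from 12.6 to 28.3 over the 9 rows at 6 weeks and from 5.15 to 26.1 over the 8 rows at 13 weeks. All 9 rows at 6 weeks and 7 of 8 rows at 13 weeks were above the highest 2-day row, and the exception, row L, held 15 wells and 8 Neat1 UMIs. Malat1 rows ranged from 107 to 140 at 2 days and from 105 to 191 at 13 weeks and overlapped. At 6 weeks all 9 Malat1 rows, from 153 to 220, were above the highest 2-day row. Meg3 rows ranged from 4.38 to 10.6 at 2 days, from 2.33 to 7.79 at 6 weeks and from 0.589 to 4.81 at 13 weeks, and 6 of 8 rows at 13 weeks were below the lowest 2-day row. Rows of a plate share the pool of mice and are not replicates of a time point.

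**Figure D2:**
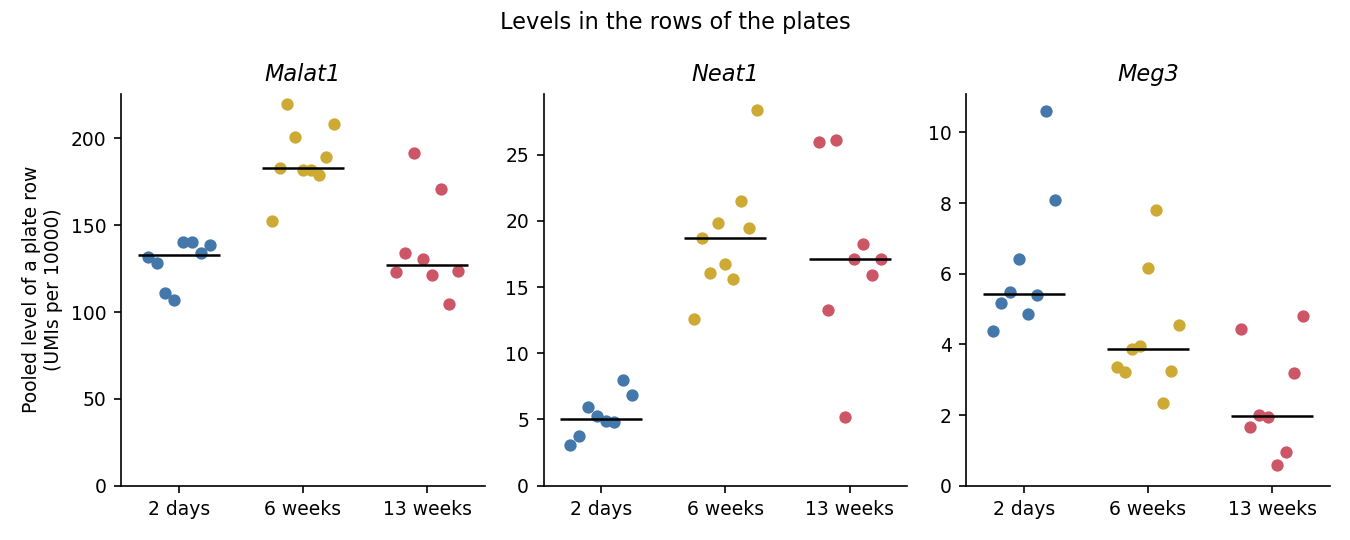
Pooled level of each plate row (points, UMIs per 10000, linear axes from 0 that differ between panels) at 2 days (8 rows), 6 weeks (9 rows) and 13 weeks (8 rows), with the median of the rows as a line. All Neat1 rows at 6 weeks and 7 of 8 at 13 weeks lie above the highest 2-day row of 7.95, and Malat1 rows at 2 days and 13 weeks overlap.

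Wells were then grouped by marker counts. Rgs5 wells, with at least 1 UMI of Rgs5, a gene of pericytes and vascular smooth muscle, numbered 35, 45 and 38 at 2 days, 6 weeks and 13 weeks. Tendon wells, with at least 3 UMIs of Thbs4, Fmod and Tnmd together, genes of tendon and fibrous tissue, numbered 70, 68 and 49. Muscle wells, with at least 5 UMIs of Acta1, Mb and Ckm together, genes of muscle fibers, numbered 1, 10 and 7. A class is a range of counts and not a cell type. The classes shared few wells, with 3, 4 and 6 wells both Rgs5 and tendon. In wells with a tendon sum of 2, just below the minimum, the levels of Malat1, Neat1 and Meg3 over all times were 135, 12.1 and 4.63, and in wells at the minimum of 3 they were 108, 8.34 and 2.57. In wells without Rgs5 these levels were 149, 13.7 and 4.87, and in wells with 1 Rgs5 UMI they were 158, 14.1 and 3.61.

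The pooled Neat1 level was higher at 13 weeks than at 2 days within each class that had UMIs to compare, while the share of wells with a Neat1 UMI at matched depth was not higher in Rgs5 wells. In Rgs5 wells its level was 4.51 at 2 days and 11.9 at 13 weeks, a ratio of 2.65 (1.33 to 5.74), but after thinning to 300 UMIs a Neat1 UMI was seen in 18.2% (6 of 33) of them at 2 days and 14.7% (5 of 34) at 13 weeks. In wells without Rgs5 it was 5.38 and 19.2, a ratio of 3.57 (2.71 to 4.72). In tendon wells it was 6.10 and 20.01, a ratio of 3.28 (2.25 to 4.84), and in wells below the tendon minimum 4.67 and 15.6, a ratio of 3.34 (2.36 to 4.80). In wells of none of the 3 classes it was 5.00 and 16.8, a ratio of 3.37 (2.25 to 5.11). Without muscle wells the ratio was 3.11 (2.40 to 4.05). These intervals all lay above 1 and overlapped each other. Reweighting the 13-week wells to the 2-day mix of classes gave 3.28. At 6 weeks the Neat1 level was 15.3 in Rgs5 wells, 23.8 in tendon wells and 19.6 in wells of no class.

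Between classes at the same time, the Neat1 level of Rgs5 wells was 0.622 times that of the other wells at 13 weeks (0.425 to 0.890), 0.764 times at 6 weeks (0.561 to 1.03) and 0.839 times at 2 days (0.403 to 1.58). Only the 13-week interval excluded 1, and it leaves out the spread over wells. Rgs5 wells were shallower, with a median of 562.5 UMIs against 762 in the other 13-week wells, and their mitochondrial share was 7.90% against 6.43%. After thinning to 300 UMIs, the share of wells with a Neat1 UMI was 18.2% in Rgs5 wells and 16.9% in the others at 2 days, 28.9% and 34.3% at 6 weeks, and 14.7% and 39.1% at 13 weeks. At 2 days the shares were close, from 6 of 33 and 24 of 142 wells, so no order is read there. In tendon wells the Neat1 level was 1.31 (0.844 to 2.02), 1.47 (1.16 to 1.87) and 1.28 (0.960 to 1.71) times that of the other wells at 2 days, 6 weeks and 13 weeks. After thinning, 19.1% against 15.9%, 43.1% against 27.4% and 46.9% against 23.4% of wells had a Neat1 UMI.

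Meg3 was lower in tendon wells than in the rest at the 2 earlier times. Its level was 3.26 in tendon wells and 8.44 in the others at 2 days, a ratio of 0.387 (0.233 to 0.619). At 6 weeks it was 2.13 and 5.68, a ratio of 0.375 (0.183 to 0.708). At 13 weeks, with 10 and 20 UMIs, it was 2.30 and 2.69, a ratio of 0.855 (0.357 to 1.91) that could not be told from 1 at this depth. The highest Meg3 level of a class was in wells of none of the 3 classes at 2 days, 9.61 (7.56 to 12.04), against 2.77 (1.43 to 4.84) at 13 weeks, a ratio of 0.288 (0.143 to 0.533). In Rgs5 wells the 10 UMIs at 2 days and 7 at 13 weeks gave a ratio of 0.536 (0.173 to 1.56), and in tendon wells the 23 and 10 UMIs gave 0.705 (0.300 to 1.54). Both intervals hold 1 and hold the ratio over all wells.

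Malat1 had UMIs in nearly every well of the tendon and Rgs5 classes. In tendon wells its level was 1.08 (0.989 to 1.17), 1.17 (1.08 to 1.26) and 1.23 (1.11 to 1.36) times that of the other wells at 2 days, 6 weeks and 13 weeks. In Rgs5 wells it was 1.03 (0.914 to 1.16), 1.198 (1.10 to 1.30) and 0.859 (0.764 to 0.964) times that of the others. The direction in Rgs5 wells thus differed between 6 and 13 weeks, and that difference was not tested. The intervals leave out the spread of Malat1 over wells. The ratio of 13 weeks over 2 days was 0.913 (0.785 to 1.06) in Rgs5 wells and 1.14 (1.03 to 1.26) in tendon wells.

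Muscle wells stood apart. At 6 weeks the 10 muscle wells held 4666 UMIs, among them 26 of Malat1 and 0 of Neat1 and Meg3. A count of 0 in 4666 allows a level of up to 6.43 by the limit of 3 counts and 7.91 by the exact Poisson interval. Both are below the Neat1 level of 19.5 (17.3 to 21.8) in the other 6-week wells. The Malat1 level of the 10 muscle wells was 0.288 times that of the others (0.188 to 0.422). The muscle wells were also shallower, with a median of 386 UMIs against 693. Their median mitochondrial share was 0.953% against 3.70%. At 13 weeks the 7 muscle wells held 19 Neat1 UMIs, and their level of 31.7 (19.1 to 49.5) was 1.93 times that of the others (1.134 to 3.10). These 19 UMIs came from 3 wells with 5 to 8 UMIs of the muscle genes, near the minimum. They held 9 of 423, 6 of 701 and 4 of 2367 UMIs and had mitochondrial shares of 7.80%, 10.8% and 6.93%. The first of them is the well with the highest Neat1 level. The 4 other muscle wells of that time, with 9 to 96 muscle UMIs, held 0 Neat1 UMIs and 4 Malat1 UMIs among 2503. Their mitochondrial shares were 0.314% to 6.43%. The single 2-day muscle well, with 39 muscle UMIs, held 0 and 2 among 1046. A 6-week muscle well with 6 muscle UMIs, also near the minimum, held 0 and 4 among 329. The division between 8 and 9 muscle UMIs falls where the 13-week Neat1 UMIs end, so it only describes these wells.

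**Figure D3:**
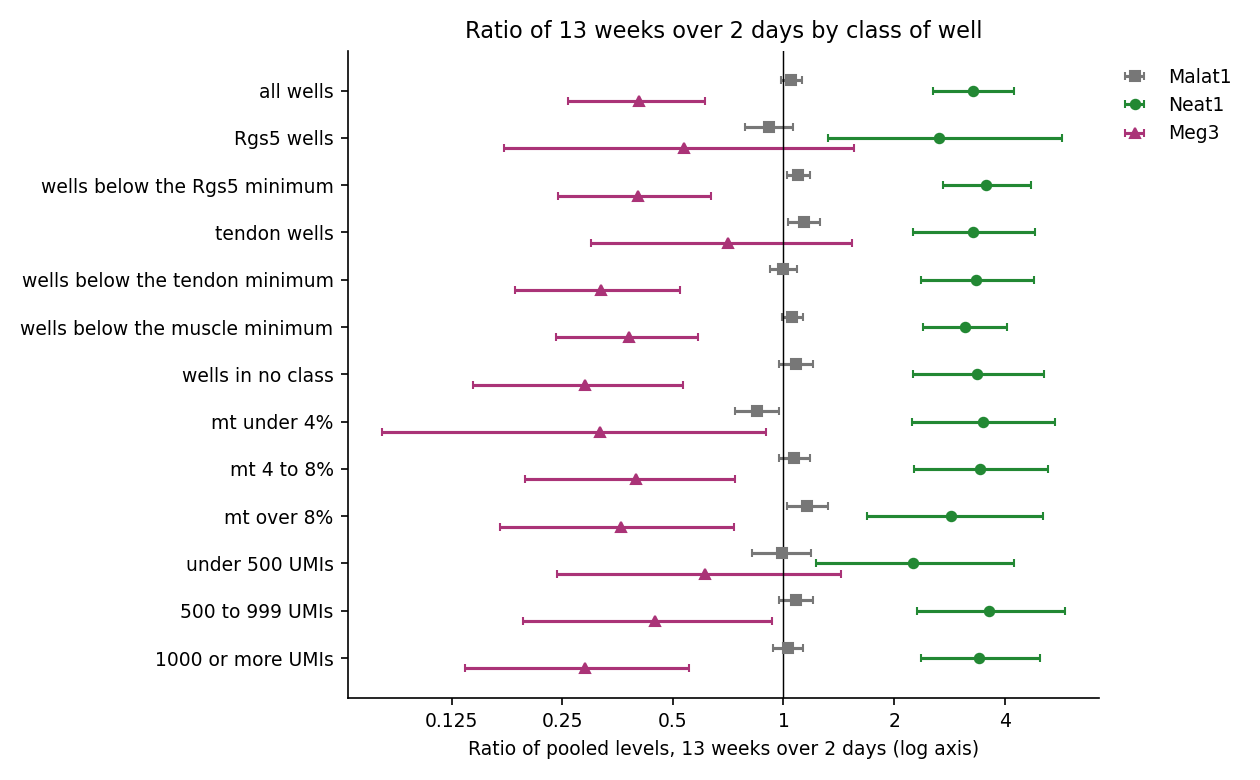
Ratio of the pooled levels of Malat1 (squares), Neat1 (circles) and Meg3 (triangles) at 13 weeks over 2 days on a log axis, with exact 95% intervals, over all wells, in classes of wells and in strata of mitochondrial (mt) share and of UMIs per well. Muscle wells, of which there is 1 at 2 days, are not drawn, every drawn Neat1 interval lies above 1, the drawn Malat1 ratios lie between 0.848 and 1.16, and 9 of the 12 Meg3 intervals below the first line lie under 1.

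The mitochondrial share per well, often read as a sign of stressed or damaged cells, was higher at 13 weeks, where 40.6% of wells were above 8%, than at 2 days, where 25.4% were. The Neat1 level at 2 days was 5.44 (3.81 to 7.53) in wells under 4%, 4.83 (3.38 to 6.68) in wells at 4 to 8% and 5.90 (3.50 to 9.33) in wells over 8%. At 13 weeks it was 18.996 (14.2 to 24.8), 16.5 (13.0 to 20.7) and 16.9 (13.2 to 21.2). At 6 weeks it was 17.9 (15.5 to 20.7), 21.9 (17.8 to 26.8) and 15.3 (8.59 to 25.3). Within each time point the intervals of the 3 strata overlapped. The ratio of 13 weeks over 2 days was 3.49 (2.24 to 5.49), 3.42 (2.27 to 5.23) and 2.86 (1.69 to 5.08) in the 3 strata, and 3.34 after the 13-week wells were reweighted to the 2-day mix of strata. Across wells the Spearman correlation of the Neat1 level with the mitochondrial share was −0.10 at 2 days (181 wells), 0.12 at 6 weeks (189 wells) and −0.06 at 13 weeks (133 wells). Both quantities share the UMI total of the well, and many wells have no Neat1 UMI.

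**Figure D4:**
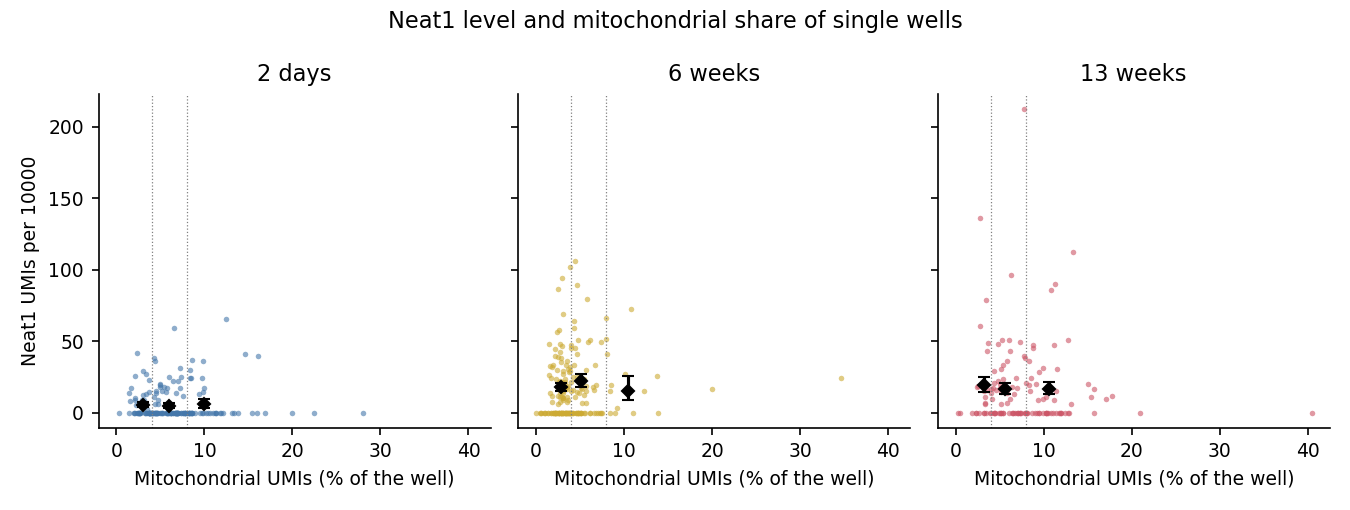
Neat1 level (UMIs per 10000) against the mitochondrial share of UMIs (percent) in each kept well at 2 days, 6 weeks and 13 weeks, with the pooled level and its 95% Poisson interval (diamonds) for wells under 4%, at 4 to 8% and over 8%, set at the median share of each stratum. The diamonds lie between 4.83 and 5.90 at 2 days and between 16.5 and 18.996 at 13 weeks.

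Meg3 was lower at 13 weeks in each of these strata, with ratios of 0.316 (0.0809 to 0.897), 0.397 (0.199 to 0.738) and 0.361 (0.170 to 0.734). Malat1 gave ratios of 0.848 (0.739 to 0.971) in wells under 4%, 1.07 (0.970 to 1.18) at 4 to 8% and 1.16 (1.02 to 1.32) over 8%. The interval of the lowest stratum thus lay below 1 and that of the highest above it, for counting error only. These intervals leave out the spread over wells, and the difference between strata was not tested. The Spearman correlation of Malat1 with the mitochondrial share was −0.001, 0.05 and 0.01 at 2 days, 6 weeks and 13 weeks.

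Depth per well was the other quantity by which wells were divided. In wells under 500 UMIs the Neat1 level was 10.2 (6.06 to 16.2) at 2 days, 13.3 (9.06 to 18.7) at 6 weeks and then 23.0 (15.8 to 32.2) at 13 weeks. In wells with 1000 or more UMIs it was 4.39 (3.19 to 5.90), 20.2 (17.01 to 23.7) and 14.99 (12.2 to 18.2). The shallow wells thus had the higher level at 2 days and 13 weeks and the lower at 6 weeks. The intervals of shallow and deep wells were apart only at 2 days. The ratio of 13 weeks over 2 days was 2.24 (1.23 to 4.23) in the shallow and 3.41 (2.37 to 4.98) in the deep wells. The ratio of 6 weeks over 2 days was 1.30 (0.706 to 2.45) in the shallow wells, an interval that holds 1, and 4.59 (3.25 to 6.59) in the deep ones. Muscle wells, with 1 well and no Neat1 UMI at 2 days, give no ratio and were left out here. Of the other 12 classes and strata, which overlap in their wells, the Neat1 interval lay above 1 in 12 for 13 weeks and in 11 for 6 weeks.

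Wells with a UMI of an endothelial, immune or red blood cell marker numbered 51, 42 and 64 at 2 days, 6 weeks and 13 weeks. Neat1 was at 5.30, 17.6 and 14.9 in them and at 5.24, 19.3 and 19.5 in the other wells. Without them the ratio of 13 weeks over 2 days was 3.72 for Neat1, 1.09 for Malat1 and 0.453 for Meg3. This setting was chosen after the data were seen.

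Wells with and without Neat1 were compared after thinning to 300 UMIs. The Malat1 level was 177 (150 to 206) in wells with a Neat1 UMI and 138 (127 to 150) in wells without one at 2 days. It was 215 (194 to 238) and 187 (173 to 202) at 6 weeks, and 189 (165 to 215) and 134 (120 to 149) at 13 weeks. The Malat1 level was higher beside a Neat1 UMI at each of the 3 times. The intervals, which leave out the spread over wells, overlapped at 6 weeks and nearly met at 2 days. The Pearson correlation of the 2 levels across wells was 0.17, 0.15 and 0.33, and the Spearman correlation 0.17, 0.20 and 0.21. For Malat1 and Meg3 the Pearson values were 0.28, 0.26 and 0.03 and the Spearman values 0.28, 0.22 and −0.04. For Neat1 and Meg3 they were 0.11, 0.13 and 0.03 by Pearson and −0.04, 0.09 and −0.09 by Spearman, so that the sign at 2 days and 13 weeks depended on the measure.

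The genes most like each RNA were taken by the Pearson correlation of ln(1 + level) over the 503 wells, centered within each time point, among 1093 genes seen in at least 10% of wells. The values were low throughout, at a depth where a well shows few molecules of most genes, and no relation is read from them. For Neat1 they were D4Wsu53e (now Rsrp1) at 0.21, Fndc1 at 0.20, Cilp, a matrix gene of cartilage and tendon, at 0.20, Malat1 at 0.20 and Rbm39, a splicing factor, at 0.18. For Malat1 they were Meg3 at 0.20, Neat1 at 0.20, Tshz2 at 0.17, Sfrs18 (now Pnisr) at 0.15 and Klf9 at 0.15. For Meg3 they included Ifrd1 at 0.21, Malat1 at 0.20, Rpl37 at 0.19 and Gpx3 at 0.18. The 95th percentile over all genes was 0.11 for Neat1, 0.10 for Malat1 and 0.12 for Meg3.

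Few genes near the 3 loci were seen. Within 100 kb of Malat1 or Neat1, 11 other genes, matched by the symbols of the annotation, had a UMI in a kept well, with a summed level of 3.27 at 2 days, 4.91 at 6 weeks and then 3.56 at 13 weeks, and the ratio of 13 weeks over 2 days was 1.09 (0.713 to 1.66). The largest of them, Ltbp3, which binds latent TGF-β, had 14, 27 and 16 UMIs. Frmd8, the neighbor on the 5′ side of Neat1, had 0, 6 and 3. Near Meg3, 5 genes had 6, 7 and 7 UMIs together. They include Rian, another maternally expressed noncoding RNA of the locus, with 6, 2 and 6, Dlk1 with 0, 2 and 1, and Gm26906, which overlaps Meg3 on the other strand, with 0, 1 and 0. Over the 4 measured genes of the 6 listed for the Dlk1-Dio3 locus apart from Meg3, the sum was 9, 7 and 8 UMIs, so at this depth no difference could be seen.

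The partners of the 3 RNAs were given by lists. Of 17 genes of paraspeckle proteins, all measured, 2 had 50 or more UMIs and neither passed 1.5-fold between 2 days and 13 weeks, against 8.68% of all genes tested that were higher and 18.5% that were lower, so that these 2 genes say little. Hnrnpk, an RNA-binding protein among them, was at 2.28 and 2.63. The core paraspeckle proteins Sfpq and Nono had 27, 14 and 14 and 14, 4 and 6 UMIs, and Matr3, a protein of the nuclear matrix, had 9, 9 and 17 in the other direction, all too few to compare. The summed level of the list was 15.3 (13.5 to 17.3) at 2 days, 14.3 (12.5 to 16.3) at 6 weeks and then 15.1 (13.0 to 17.5) at 13 weeks, while Neat1 had the levels given above.

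Of 18 genes of nuclear speckles and splicing, all measured, 8 had enough UMIs. None was 1.5-fold higher, against 8.68% of all genes tested, and 1 of the 8 was lower, against 18.5%. It is Srsf3, a splicing factor, at 2.28 and 1.19, a ratio of 0.522 (0.262 to 0.982). Son, a scaffold protein of speckles, was at 8.35 and 9.34, and the summed level of the list was 41.0, 38.1 and 39.0 at 2 days, 6 weeks and 13 weeks. Of 32 other long noncoding RNAs, 27 were measured and 3 had enough UMIs, of which 1 was lower, against 18.5% of all genes tested. Snhg18, a host of a small nucleolar RNA, was at 2.16, 1.28 and 1.27, with a ratio of 13 weeks over 2 days of 0.589 (0.300 to 1.10) whose interval holds 1. Xist, the RNA of the inactive X chromosome, was at 9.40, 7.53 and 10.1, and Gas5, a host of small nucleolar RNAs, at 10.2, 8.36 and 10.4. The median log2 ratio of 13 weeks over 2 days of the 3 was 0.03.

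Of 16 imprinted genes, 14 were measured and 2 had enough UMIs, both of them lower at 13 weeks. Peg3 was at 2.45, 1.59 and 0.679, a ratio of 13 weeks over 2 days of 0.277 (0.112 to 0.597), and Gnas was at 12.03, 10.3 and 7.89, a ratio of 0.656 (0.508 to 0.842). Both are among the 18.5% of all genes tested that were lower, and a list of 2 genes shows no more than these values. The others had fewer than 50 UMIs at 2 days and 13 weeks together and differed in direction. Igf2r, a receptor that clears Igf2, had 31, 28 and 13 UMIs, Cdkn1c, an inhibitor of the cell cycle, 26, 8 and 17, and Mest 16, 7 and 4. Igf2, a growth factor, had 6, 7 and 18.

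Genes of stress and of tissue dissociation were set beside Neat1. Of 18 immediate early genes, 13 had enough UMIs, of which 1 was higher and 4 were lower at 13 weeks, against 8.68% and 18.5% of all genes tested, and their median log2 ratio was −0.41 against −0.12 over all genes tested. The lower ones were Atf3, with a ratio of 0.161 (0.0500 to 0.405), Fosb, with 0.490 (0.359 to 0.660), Egr1, with 0.512 (0.425 to 0.615), and Ier3, with 0.551 (0.321 to 0.914). Klf6 was higher, with 1.54 (0.936 to 2.53). Of 11 heat shock genes, 4 had enough UMIs and 1 was lower, against 18.5% of all genes tested. It was Hsp90aa1, with 0.545 (0.298 to 0.954). Of 11 hypoxia genes 1 had enough UMIs, Ldha, at 3.56, 3.38 and 2.80. Of 11 p53 targets none had enough UMIs, and their summed level was 4.21 (3.29 to 5.30), 8.61 (7.22 to 10.2) and 4.84 (3.66 to 6.27) at 2 days, 6 weeks and 13 weeks. Within that sum the members differed. Cdkn1a, an inhibitor of the cell cycle, had 15, 37 and 9 UMIs and Trp53inp1 had 4, 22 and 5, while Plk2 had 12, 13 and 11 and Zmat3 had 1, 0 and 4.

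**Figure D5:**
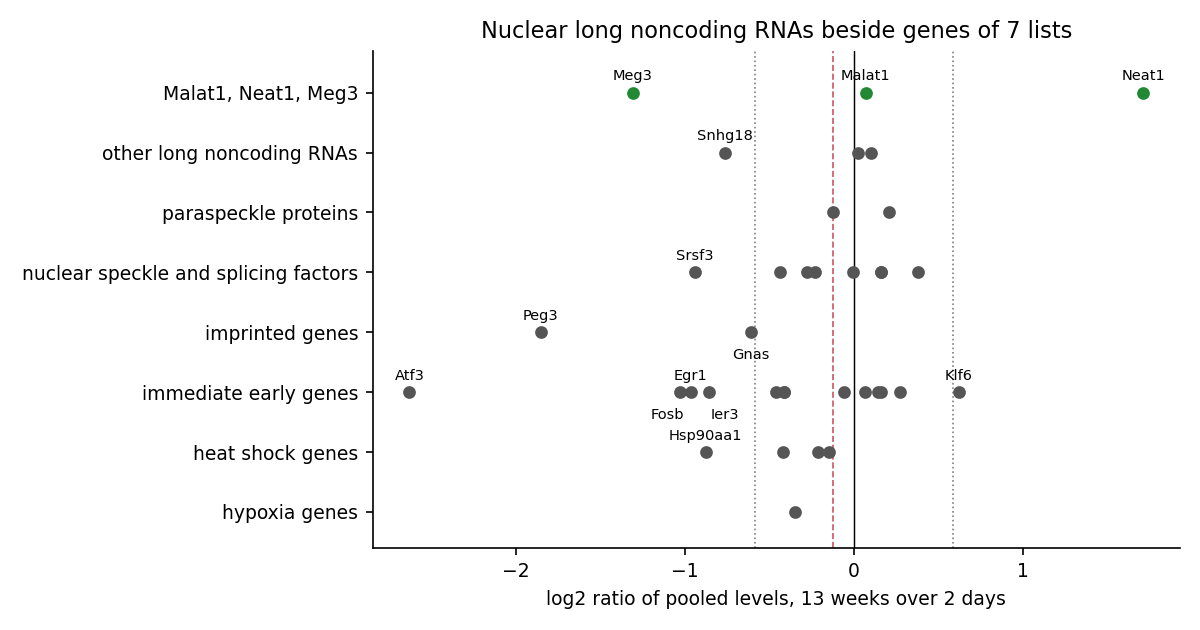
Log2 ratio of pooled levels at 13 weeks over 2 days for Malat1, Neat1 and Meg3 and for the genes of 7 lists that had 50 or more UMIs at the 2 times together (points, 1 per gene). Dotted lines mark 1.5-fold, the dashed line marks the median of all 772 genes at −0.12, and genes past 1.5-fold are named.

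Among the cell type markers with enough UMIs, 4 of 5 perivascular, 1 of 1 endothelial, 3 of 4 red blood cell, 1 of 1 muscle satellite and 2 of 6 skeletal muscle genes were at least 1.5-fold higher at 13 weeks. Lower were 3 of 6 fibroblast or progenitor, 2 of 6 tendon or fibrous, 2 of 2 osteoblast and 1 of 6 skeletal muscle genes. Immune markers, with 19, 0 and 17 UMIs, and Schwann cell markers, with 21, 3 and 10, had no gene to compare. The share of all genes tested was 8.68% higher and 18.5% lower, against which these counts of few genes are read. The part of this shift in the levels of the 3 RNAs was not tested beyond the classes of wells and the removal of wells with an endothelial, immune or red blood cell marker, both given above.

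Reads behind each UMI differed between the RNAs and the plates. Over all genes a UMI was backed by 5.02 reads at 2 days, 7.65 at 6 weeks and then 5.50 at 13 weeks. For Malat1 these values were 5.86, 11.5 and 5.48, for Neat1 4.30, 4.97 and 3.50, and for Meg3 4.12, 9.62 and 3.67. A Neat1 UMI at 6 weeks was thus backed by fewer reads than the average UMI, and a Malat1 or Meg3 UMI by more. On reads in place of UMIs, the ratio of 13 weeks over 2 days was 2.43 for Neat1, 0.896 for Malat1 and 0.328 for Meg3.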

How the data were processed

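Single Tomato+ periosteal cells on 2 plates were profiled by Drop-seq adapted to wells. The authors aligned reads to mm10 (GRCm38) with STAR 2.5.4a and used Drop-seq tools to count them by gene and cell barcode, with and without collapsing of UMI copies. The deposited matrices thus hold raw UMI counts and raw read counts, neither normalized nor filtered, and a note maps wells to time points. The submitters' notes also name bcl2fastq 2.18.0.12 and Picard 2.9.3. No use was made of 168 wells without a time point in that map. Where only 1 of the plates listed a gene, it was taken as 0 on the other.

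Wells with 200 or more genes were kept. UMIs were pooled over wells and given per 10000, with exact Poisson intervals, ratios with exact conditional binomial intervals and shares with Clopper-Pearson intervals, all at 95%. For a count of 0 the upper limit was set at 3 counts. Wells were thinned to 300 UMIs once, without replacement. No doublet caller was run. A gene was compared across time where it had 50 or more UMIs, at a fold of 1.5, with no p-value because there was 1 pool per time point. No paired analysis applies. Calculations used Python 3.11.15, numpy 2.4.6, pandas 2.3.3 and scipy 1.17.1, with matplotlib 3.10.9 for figures. They were tested on simulated counts with counting error only. That simulation had no further spread between wells, so it does not test the intervals for such spread. The kept wells held 171209, 156763 and 117824 UMIs at 2 days, 6 weeks and 13 weeks, so that a gene with no UMI in a well is not shown to be absent. Counts are not divided by transcript length, and levels were not compared between genes.

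The genes named are the 3 RNAs, the fixed lists, the 5 genes most correlated with each RNA, genes within 100 kb and the genes that define the classes. Some genes that this rule names are not reported here. Of the list genes, 6 were found under an older symbol through RefSeq synonyms (GRCm38.p6). The 3 RNAs, the classes and the lists were chosen with earlier results of these data known. Alternatives changed the gene minimum, reads, totals, scaling, weighting of wells, thinning and the wells left out, and one was added after seeing the data. The deposited map writes 12 weeks where the matrices and labels write 13.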

Additional observations from a re-analysis of the deposited data

How the results depend on the processing

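For 13 weeks over 2 days, 15 of 16 alternatives for Neat1 stayed within the counting interval of its ratio, and all 16 lay between 2.43 and 3.72. The exception was read counts, with 2.43. For Meg3 all 16 stayed within the interval, between 0.328 and 0.490. For Malat1, whose interval holds 1, 14 of 16 stayed, and read counts gave 0.896 and the median gene ratio as scaling 1.14. For 6 weeks over 2 days, Neat1 lay between 2.64 and 4.07, Malat1 between 1.36 and 1.89, and Meg3 between 0.614 and 1.07, where read counts turned its direction to 1.07. Reads per UMI differ between genes and plates, with values given above, and the cause was not tested further. The number of genes past 1.5-fold was 210 of 772. It was 848 of 2365 with genes of 20 or more UMIs and 81 of 355 with genes of 100 or more. The share past 1.5-fold, and not only the number of genes compared, thus depends on this minimum. The other 8 alternatives stayed within 1.5 times of 210. No paired analysis was possible because there is 1 pool per time point and no result comes from a test. Depth limits Meg3 most, with 30 UMIs at 13 weeks.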
